A study of Mus musculus with 447 samples.

Results

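In fetal mouse pancreas, 44.5% of single cells with at least 1000 CPM of glucagon RNA also held at least 100 CPM of insulin RNA. Cells were called glucagon cells when Gcg, the gene of the glucagon precursor, reached 1000 CPM (a gene's share of the reads of its cell, scaled to a total of 1e+06, without the ERCC spike-in sequences), and insulin was counted as the sum of Ins1 and Ins2, the 2 mouse insulin genes. The cells were thus chosen by their Gcg, Ins1 and Ins2 levels, which are given as a description only. By this rule 348 of 447 cells were glucagon cells. Of these, 15 carried at least 1000 CPM of insulin and are called insulin-high, 94, 39 and 7 in 3 groups carried 100 to 1000 CPM and are called low-insulin, and 99, 69, 24 and 1 carried less than 100 CPM and are called glucagon-only. Insulin-high and low-insulin cells together are called insulin-carrying, by the limit of 100 CPM and not by the presence of reads. They made up 44.5% (39.2 to 49.9) of the 348 glucagon cells, and the insulin-high cells alone 4.31% (2.43 to 7.01). The intervals are exact Clopper-Pearson intervals at 95%, which here and below cover counting error only.

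The cells were GFP-positive, sorted at E15.5, in mid-gestation, into wells holding 1 cell each and read by Smart-seq3, a plate-based method for polyadenylated RNA. They came from 2 genotypes, Pdx1CreNgn3KONeurod1OE, written here as Ngn3KO, in which Neurog3 is deleted and Neurod1 is overexpressed, and Pdx1CreNeurod1OE, written as Neurod1OE, in which Neurod1 is overexpressed alone. Every cell thus carried the Neurod1 transgene, driven in the Pdx1 lineage by a tamoxifen-inducible Cre (Pdx1CreER in the design text), and wild-type cells were not analysed here. By their titles the cells belong to set 2 or set 3, which were deposited as separate matrices, and every comparison was made within a set. The insulin-high, low-insulin and glucagon-only cells numbered 9, 94 and 99 in Ngn3KO set 2, 5, 39 and 69 in Neurod1OE set 2, and 1, 7 and 24 in Neurod1OE set 3, while the only glucagon cell of Ngn3KO set 3 was glucagon-only. Animals and litters are not named in the labels. Each genotype was therefore 1 sample, its cells were not replicates, and no difference below has a test between animals.

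Glucagon and insulin are the hormones of alpha and beta cells, which raise and lower blood glucose. Both cell types arise in the embryo from progenitors that pass through a Neurog3-positive stage, and Neurod1, a basic helix-loop-helix factor, follows Neurog3 in that sequence and binds E-box motifs with an E-protein partner. Fetal endocrine cells with RNA of more than 1 hormone are a known feature of early islet development, and adult alpha cells are set apart from beta cells by factors such as Irx2 on one side and Pdx1, Nkx6-1 and Mafa on the other.

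The promoter windows of 3 hormone genes, Ins1, Iapp and Gcg, are shown because the overexpressed factor belongs to the class that binds E-boxes. Each is the 250 bases before the RefSeq start in build GRCm38.p6, read 5′ to 3′ on the strand of the gene, with CANNTG, the general E-box, in capitals. The windows are chr19:52264047-52264296 on the plus strand for Ins1, chr6:142298175-142298424 on the plus strand for Iapp and chr2:62483654-62483903 on the minus strand for Gcg.
Ins1: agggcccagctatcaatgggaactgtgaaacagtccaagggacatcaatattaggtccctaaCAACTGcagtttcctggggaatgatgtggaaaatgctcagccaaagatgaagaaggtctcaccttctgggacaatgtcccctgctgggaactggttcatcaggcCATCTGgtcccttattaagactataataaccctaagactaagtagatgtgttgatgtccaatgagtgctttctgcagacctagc
Iapp: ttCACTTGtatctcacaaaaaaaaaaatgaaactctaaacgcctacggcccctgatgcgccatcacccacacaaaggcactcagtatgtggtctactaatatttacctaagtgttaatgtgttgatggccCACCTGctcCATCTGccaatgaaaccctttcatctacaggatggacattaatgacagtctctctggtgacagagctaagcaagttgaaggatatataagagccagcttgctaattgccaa
Gcg: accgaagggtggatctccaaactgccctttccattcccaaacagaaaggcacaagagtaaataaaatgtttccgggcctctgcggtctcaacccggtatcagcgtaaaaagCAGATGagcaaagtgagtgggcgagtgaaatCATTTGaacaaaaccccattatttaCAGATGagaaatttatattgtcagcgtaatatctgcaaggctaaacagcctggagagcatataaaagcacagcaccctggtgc
CANNTG, which reads the same on both strands, occurred 2 times in the Ins1 window, 3 times in that of Iapp and 3 times in that of Gcg. At least 1 match is found in 66.2% of the 32851 windows of this length in the table, so its presence separates neither hormone. The narrower E-box CAGATG, searched on both strands (CATCTG on the other) and contained in CANNTG, was found in all 3 windows and in 14.4% of all windows. The windows of Nnat and Npy held no CANNTG. A match is a run of letters and not a measured binding site. Ins2 is named only.

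Insulin RNA was spread very unevenly over the glucagon cells. In Ngn3KO set 2 the median over glucagon cells was 101.6 CPM of insulin, in Neurod1OE set 2 it was 73.3 CPM, and in Neurod1OE set 3 it was 32.5 CPM. Insulin was at 0 in 2, 1 and 12 glucagon cells of these groups, so in set 2 nearly every glucagon cell held some insulin reads and the limit of 100 CPM cuts through a continuous range. The cells beside the limit held 100.0 CPM above and 98.7 CPM below it in Ngn3KO set 2, 100.1 and 99.6 CPM in Neurod1OE set 2, and 132.5 and 94.1 CPM in Neurod1OE set 3. At the limit of 1000 CPM the neighbours held 1060 and 947 CPM in Ngn3KO set 2, 1254 and 862 CPM in Neurod1OE set 2, and 8326 and 895 CPM in Neurod1OE set 3. Most insulin reads came from few cells: the insulin-high cells held 79.1% of the insulin reads of all Ngn3KO cells of set 2, 54.5% of those of Neurod1OE set 2 and 74.2% of those of Neurod1OE set 3.

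**Figure D1:**
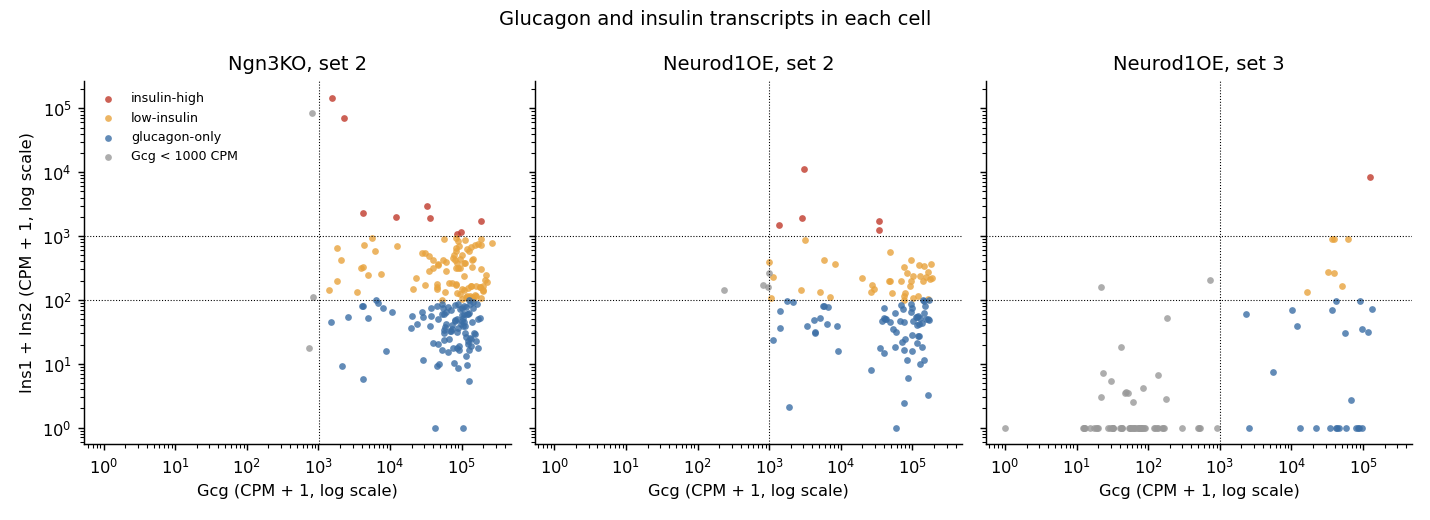
Insulin (Ins1 + Ins2, CPM + 1) against glucagon (Gcg, CPM + 1) in each cell, both on log scales, for Ngn3KO set 2, Neurod1OE set 2 and Neurod1OE set 3, with dotted lines at the limits of the rule and colours for the classes. Insulin-high cells lie at both ends of the glucagon range, and the cell with the most insulin, at 147505 CPM, has 1556 CPM of Gcg.

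Insulin-carrying cells made up 50.99% (43.9 to 58.1) of the glucagon cells in Ngn3KO set 2 and 38.9% (29.9 to 48.6) in Neurod1OE set 2, and the intervals overlap. In Neurod1OE set 3 the share was 25% (11.5 to 43.4). The insulin-high share was 4.46% (2.06 to 8.29) in Ngn3KO set 2, 4.42% (1.45 to 10.0) in Neurod1OE set 2 and 3.13% (0.0791 to 16.2) in Neurod1OE set 3. After every cell was thinned to 165298 reads, the insulin-carrying shares were 48.5%, 36.04% and 25.9%. Thinning left out 1, 18 and 12 shallower insulin-high, low-insulin and glucagon-only cells of Ngn3KO set 2, 0, 0 and 1 of Neurod1OE set 2, and 0, 1 and 4 of Neurod1OE set 3. With 1 sample per genotype, a difference between the genotypes cannot be told apart from a difference between animals or plates.

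Cells of set 2 fell into 2 subsets within each genotype, and the share moved with that split. The processed pseudogene Gm12338, which lies within the gene Pitpna on chromosome 11, was at or above 10 CPM in some cells and below it in others. In Neurod1OE set 2, 46 of the 47 glucagon cells with Gm12338 also had at least 10 CPM of Y-linked genes, against 0 of the 66 without it. In Ngn3KO set 2 only 3 glucagon cells, all Gm12338-positive, had Y-linked reads at that level. The insulin-carrying share was 65.1% in Gm12338-positive and 35.4% in Gm12338-negative glucagon cells of Ngn3KO, and 57.4% and 25.8% in those of Neurod1OE. Median insulin was 163.4 CPM in positive and 61.2 CPM in negative Ngn3KO cells, and 124.98 and 49.6 CPM in Neurod1OE cells. The part of embryo, sex or plate in these shares was not tested.

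Whether small amounts of insulin RNA belonged to the cell in the well could be judged only in part. In set 3, 45 cells with at least 1000 CPM of Cpa1, a digestive enzyme gene of acinar cells, gave a background, since acinar cells should lack insulin. Their median depth was 863810 reads. Of these, 1 reached 100 CPM of insulin (2.22%, 0.0562 to 11.8), the median was 0, and 13.3% had any insulin read. Of the 45 cells, 1 of Neurod1OE had 80304 CPM of Gcg, so this background was not free of glucagon cells. Set 2 offered no such background. The lowest Gcg level in any of its 322 cells was 232 CPM, and 3 cells had no insulin read. Its 3 Cpa1-high cells all had insulin reads, up to 80.3 CPM, and all had more than 1000 CPM of Gcg. Those 3 cells had 1870, 4015 and 5685 CPM of Gcg, and 5 insulin-high cells had 1390 to 3062 CPM, within or below that range. With the glucagon limit at 3000 CPM, insulin-high cells numbered 7 in Ngn3KO set 2 and 3 in Neurod1OE set 2, and 4 of these 5 cells were no longer counted. Whether reads passed between wells of a plate, or a well held more than 1 cell, was not tested.

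Depth was similar between the classes in set 2 and differed in set 3. Over all 447 cells the totals ran from 25769 to 2788066 reads with a median of 476838. Median totals in insulin-high, low-insulin and glucagon-only cells were 311520, 362394 and 338330 reads in Ngn3KO set 2 and 574947, 576151 and 545876 reads in Neurod1OE set 2. In Neurod1OE set 3 the insulin-high cell had 1239909 reads, the low-insulin cells a median of 1019930 and the glucagon-only cells 677956. Genes found after thinning to equal depth had medians of 6818, 6874 and 7161 in Ngn3KO set 2 and 7235, 6747 and 7298 in Neurod1OE set 2, in the same order of classes. Across glucagon cells, insulin and the total count had a Spearman rho of 0.01 in each genotype of set 2.

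The glucagon level itself differed between the insulin-high and the other cells. In Ngn3KO set 2 the median Gcg was 33124 CPM in insulin-high, 89371 CPM in low-insulin and 80091 CPM in glucagon-only cells. In Neurod1OE set 2 it was 3062, 76460 and 74480 CPM in the same order, and in Neurod1OE set 3 it was 124370 CPM in the single insulin-high cell, 38761 CPM in low-insulin and 44831 CPM in glucagon-only cells. The low-insulin cells thus had glucagon RNA in the range of the glucagon-only cells, while insulin-high cells ran from 1390 CPM to 186646 CPM of Gcg in set 2. Gcg and insulin had a Spearman rho of -0.03 over the 9, 94 and 99 cells of Ngn3KO set 2 and of -0.07 over the 5, 39 and 69 cells of Neurod1OE set 2, where the cells of a genotype share their sample and differ in depth.

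The 15 insulin-high cells were not 1 kind of cell. In 5 of them RNA of some beta-cell genes stood beside little RNA of 2 alpha-cell factors. These 5 were the 2 Ngn3KO cells with the most insulin and 3 Neurod1OE cells of set 2. They had 1390 to 3062 CPM of Gcg, and Nnat, the gene of neuronatin, an endoplasmic reticulum protein of beta cells, stood at 2392 CPM or more in each. Mlxipl, the glucose-responsive transcription factor ChREBP, was at 320 CPM or more in each, and Irx1 and Irx2, factors of alpha cells, were both under 20 CPM. All 3 features together (Nnat at least 2000 CPM, Mlxipl at least 300 CPM, Irx1 and Irx2 below 20 CPM, limits chosen after the values were seen) were met by 5 of 15 insulin-high cells, by 0 low-insulin cells (exact upper bound 2.60%) and by 0 glucagon-only cells (exact upper bound 1.89%). Taken singly, Nnat at 2000 CPM or more was found in 5 insulin-high, 1 low-insulin and 1 glucagon-only cell, and Mlxipl at 300 CPM or more in 5, 3 and 0 cells.

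The 2 Ngn3KO cells at the top held 70337 and 147505 CPM of insulin, which was 7.03% and 14.8% of all their reads. Gcg stood at 2299 and 1556 CPM in them, and Iapp, the gene of amylin, which beta cells secrete with insulin, at 23041 and 20563 CPM. Slc2a2, the glucose transporter GLUT2, had 451 and 250 CPM in this pair and was below 100 CPM in every other glucagon cell. Pdx1, a factor of pancreas progenitors and beta cells, had 186.5 and 111.2 CPM, and its beta-cell partner Nkx6-1 had 269 and 491 CPM. Mafa, a factor of mature beta cells, had 41.1 CPM in 1 of the pair and no read in the other. Npy, the gene of neuropeptide Y, had 7775 and 3431 CPM. Together this pair held 77.9% of all insulin reads of Ngn3KO set 2.

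The 3 Neurod1OE cells of this kind differed from the Ngn3KO pair in which insulin gene they used. Their insulin was 1462, 1915 and 11187 CPM, with an Ins1 share of 95.7%, 96.6% and 82.01% of the insulin reads. In the Ngn3KO pair the Ins1 share was 29.7% and 11.4%, so that Ins2 led there. Npy and Slc2a2 had no read in any of the 3 cells, while Pcsk1, the convertase that cuts proinsulin, had 922, 274 and 853 CPM. Ppy, the pancreatic polypeptide gene, was at 19368 CPM in the first of them and at 51.5 and 244 CPM in the others. Pyy, which encodes peptide YY, was at 42319, 17052 and 70249 CPM in the 3 cells, above their insulin. In the Ngn3KO pair Pyy was at 8562 and 6271 CPM, below the insulin of that pair. It also reached 1000 CPM in 66 of 69 glucagon-only cells of Neurod1OE set 2.

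**Figure D2:**
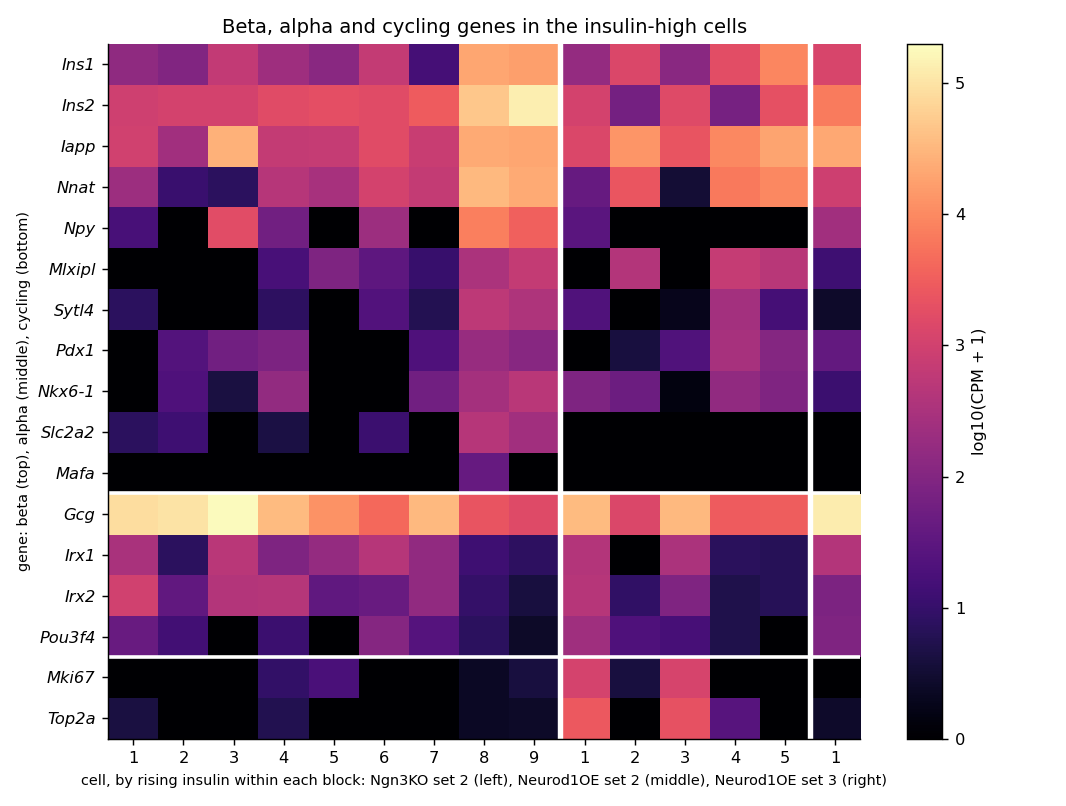
Heat map of log10(CPM + 1) for beta genes (top), alpha genes (middle) and cycling genes (bottom) in the 15 insulin-high cells, ordered by insulin within Ngn3KO set 2 (left), Neurod1OE set 2 (middle) and Neurod1OE set 3 (right). The 2 rightmost Ngn3KO cells and cells 2, 4 and 5 of Neurod1OE show Nnat and Mlxipl with low Irx1 and Irx2, and Mki67 is at 1113 and 1192 CPM in cells 1 and 3 of Neurod1OE.

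The other 10 insulin-high cells kept alpha-cell RNA. The 7 such cells of Ngn3KO held 1060 to 2968 CPM of insulin and 4205 to 186646 CPM of Gcg. Their Nnat ran from 6.42 to 1091 CPM and their Mlxipl from 0 to 83.9 CPM, below the range of the 2 cells at the top. Irx2 was at 33.6 CPM or more in each of the 7. One of them stood apart with 26958 CPM of Iapp, 1714 CPM of Npy and 6.42 CPM of Nnat beside 186646 CPM of Gcg.

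Of the 2 remaining Neurod1OE cells of set 2, both carried cell-division RNA. They held 1254 and 1702 CPM of insulin and 34591 and 34010 CPM of Gcg. Mki67 was at 1113 and 1192 CPM and Top2a, a topoisomerase of dividing cells, at 2680 and 2136 CPM in them. No other insulin-high cell reached 100 CPM of Mki67, against 11 low-insulin and 26 glucagon-only cells that did. The insulin-high cell of Neurod1OE set 3 had 8326 CPM of insulin, 124370 CPM of Gcg, 22233 CPM of Iapp, 910 CPM of Nnat and 12.1 CPM of Mlxipl.

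To compare whole classes, counts were summed over the cells of a class, and the log2 ratio to the glucagon-only cells of the same genotype and set was taken after adding 1 CPM. Genes entered when either class had 10 CPM or more and reads in 10% or more of its cells, and are called higher or lower from a 2-fold difference on. Among 10230 measured genes of Ngn3KO set 2, 13.6% were higher and 18.8% lower in insulin-high cells (32.4% in either direction), and among 10497 of Neurod1OE set 2, 17.3% were higher and 25.1% lower (42.4% in either direction). The summed levels weight the deeper cells more, and the 2 Ngn3KO cells with the most insulin were the deepest of their class at 1507050 and 1313447 reads.

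Beta-cell genes other than Ins1, Ins2, Iapp, Nnat and Npy were mostly higher in insulin-high cells. In Ngn3KO, 15 of 18 measured genes of the list were higher and 0 lower, with a median log2 ratio of 2.55, against a median of -0.10 over all measured genes. In Neurod1OE, 9 of 16 were higher and 1 lower, Ucn3, with a median of 1.16 against -0.12. The Ngn3KO count rested on the 2 cells above 10000 CPM of insulin: without them, a setting chosen after the data were seen, the median of the list was -0.28. In Neurod1OE, leaving out the top cell of each gene gave a median of 0.21.

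Nnat had 14998 CPM in insulin-high and 94.8 CPM in glucagon-only cells of Ngn3KO, a log2 ratio of 7.29, and 1916 and 42.8 CPM in those of Neurod1OE, a log2 ratio of 5.45. Without the top cell the Nnat ratios were 6.39 and 4.80. In Ngn3KO the pair with the most insulin had 33088 and 23133 CPM of Nnat, beside 6.42 to 1091 CPM in the rest of the class. Leaving out the top cell kept the other cell of that pair, so the Ngn3KO value does not speak for the rest. Iapp had 13266 and 2772 CPM in Ngn3KO (log2 2.26, 1.77 without the top cell) and 6210 and 2678 CPM in Neurod1OE (log2 1.21, 0.86 without the top cell and 0.61 within Gm12338-positive cells). By cell, Iapp reached 1000 CPM in 4 of 9 insulin-high and 60 of 99 glucagon-only cells of Ngn3KO. The summed Iapp ratio there thus came from a few cells. In Neurod1OE it reached that level in 5 of 5 and 37 of 69 cells. Neither gene was part of the rule, but both were among the markers named with it, so these ratios describe the cells. Their readings may take in reads of an overlapping gene on the other strand (Blcap for Nnat, Slco1a5 for Iapp), since the strand setting of the counting is not stated.

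Mlxipl, Sytl4 and Adra2a were among the beta genes with the largest ratios in both genotypes. Mlxipl had 260.8 and 13.6 CPM in insulin-high and glucagon-only cells of Ngn3KO (log2 4.16) and 183.2 and 16.7 CPM in those of Neurod1OE (log2 3.38). Sytl4, the granule protein granuphilin, had 242.3 and 0.848 CPM in Ngn3KO (log2 7.04) and 33.2 and 0.947 CPM in Neurod1OE (log2 4.14). Adra2a, an adrenergic receptor that restrains insulin release, had 36.1 and 0.765 CPM in Ngn3KO (log2 4.39) and 26.4 and 0.231 CPM in Neurod1OE (log2 4.48). Without the top cell, the ratios of Mlxipl and Adra2a stayed at 2.75 or more in both genotypes, and that of Sytl4 was 6.06 in Ngn3KO. The Ngn3KO values still took in a cell of the pair with the most insulin, so they do not speak for the rest of the class. In Neurod1OE the ratio of Sytl4 fell to 1.64 without the top cell, so its level there came mainly from 1 cell. Granule and hormone-processing genes as a list were higher at a share near that of all measured genes. Of 15 such genes, 3 were higher and 0 lower in insulin-high cells of Ngn3KO (median log2 -0.14), where 13.6% of all measured genes were higher. In those of Neurod1OE 3 were higher and 1 lower (median 0.12), where 17.3% of all measured genes were higher. Ptprn, a granule membrane protein, was at log2 -0.60 in Ngn3KO and -1.23 in Neurod1OE, and Slc2a2 had no read in insulin-high cells of Neurod1OE.

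Transcription factors of beta cells were less even between the genotypes. Pdx1 had 98.4 and 15.2 CPM in insulin-high and glucagon-only cells of Ngn3KO (log2 2.62) and 52.8 and 20.3 CPM in those of Neurod1OE, where the log2 ratio of 1.34 was 0.10 without the top cell. Nkx6-1 had 224.4 and 31.4 CPM in Ngn3KO (log2 2.80) and 43.6 and 29.7 CPM in Neurod1OE (log2 0.54). Per cell, at least 100 CPM of Nkx6-1 was found in 26.7% of insulin-high (4 cells), 12.1% of low-insulin (17 cells) and 7.77% of glucagon-only cells (15 cells), and at least 100 CPM of Pdx1 in 26.7%, 2.86% and 3.11% (4, 4 and 6 cells).

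Some alpha-cell genes were lower. Of 19 measured genes of the list without Gcg, 1 was higher and 7 were lower in insulin-high cells of Ngn3KO (median log2 -0.51, against 18.8% of all measured genes lower), and 0 were higher and 4 lower in those of Neurod1OE (median -0.42, against 25.1% of all measured genes lower). The Neurod1OE count is thus no larger a share than that over all genes. Pou3f4, a factor of alpha cells, had 12.4 and 94.5 CPM in insulin-high and glucagon-only cells of Ngn3KO (log2 -2.83) and 42.7 and 152.3 CPM in those of Neurod1OE (log2 -1.81). Irx1 had 91.7 and 244.7 CPM in Ngn3KO (log2 -1.41) and 222.4 and 231.7 CPM in Neurod1OE (log2 -0.06).

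**Figure D3:**
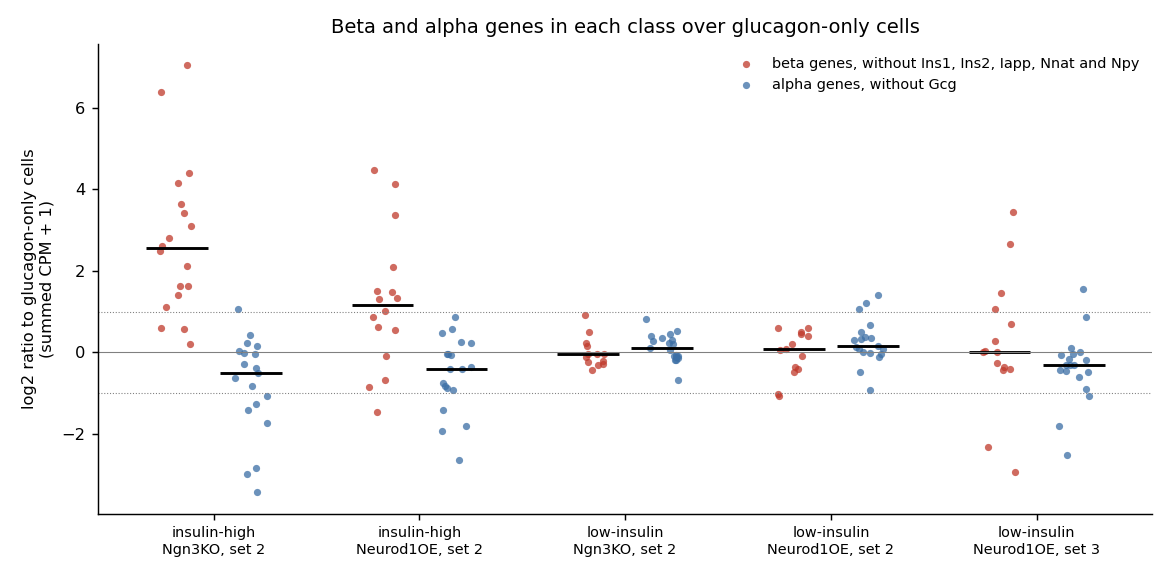
Log2 ratio (summed CPM + 1) to glucagon-only cells for each measured beta gene (without Ins1, Ins2, Iapp, Nnat and Npy) and each measured alpha gene (without Gcg) in insulin-high and low-insulin cells, with bars at the median and dotted lines at 2-fold. Beta genes have medians of 2.55 and 1.16 in the insulin-high cells of set 2 and of -0.05, 0.08 and 0.01 in the low-insulin cells.

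General endocrine genes mostly stayed within 2-fold, as did most measured genes. Of 16 pan-endocrine genes, 2 were higher in insulin-high cells of Ngn3KO and 3 in those of Neurod1OE. These counts are near the share over all measured genes, of which 13.6% and 17.3% were higher. In either genotype 0 of the 16 were lower, against 18.8% and 25.1% of all measured genes. Scg2, a granin of secretory granules, had log2 ratios of 1.29 and 1.13, which were 0.52 and 0.41 without the top cell. Summed acinar genes had a median of 164.1 CPM and a maximum of 285.3 CPM in insulin-high cells of Ngn3KO, against a median of 84.3 and a maximum of 13382 CPM in glucagon-only cells. In Neurod1OE the acinar sums had a median of 27.8 and a maximum of 37.7 CPM in insulin-high cells, against 85.6 and 15553 CPM in glucagon-only cells, and 6 of 6 measured acinar genes were lower. In Ngn3KO 1 of 5 was higher and 4 were lower. C1qa, a complement gene of macrophages and the only immune gene measured, had 92.5 and 22.9 CPM in insulin-high and glucagon-only cells of Ngn3KO (log2 1.97, 1.15 without the top cell) and 8.96 and 33.4 CPM in those of Neurod1OE (log2 -1.79), while Ptprc was at 0 in the insulin-high cells. Tubb3, a tubulin of neurons, was at log2 1.16 and 1.29 (0.84 and 0.76 without the top cell). The part of other cells' RNA in the ratios was not tested. Genes of cell division were lower in 8 of 8 in Ngn3KO and higher in 8 of 8 in Neurod1OE, the class that holds the 2 cells with more than 1000 CPM of Mki67.

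In both genotypes, 12 genes were more than 2-fold higher in insulin-high cells with and without the top cell and at 50 CPM or more, and 74 were lower. Besides Ins1, Ins2, Nnat and Mlxipl the higher ones were P2ry1, Pard3, Bend5, Npepl1, Ffar3, Mknk2, Dock9 and Cpsf2. Before the limits on top cell and level, 13.6% of 10230 measured genes were higher and 18.8% lower in Ngn3KO. In Neurod1OE 17.3% of 10497 were higher and 25.1% lower. The overlap to be expected from such shares was not tested, so the genes shared by both genotypes are a description. Leaving out the top cell also kept a cell of the Ngn3KO pair with the most insulin. P2ry1, a receptor for extracellular nucleotides, had 505 and 1.31 CPM in insulin-high and glucagon-only cells of Ngn3KO (log2 7.77) and 106.1 and 6.12 CPM in those of Neurod1OE (log2 3.91). By cell it stood at 1447 and 407 CPM in the Ngn3KO pair and at 15.3, 802 and 145.4 CPM in the 3 Neurod1OE cells, and at 37.3 CPM or less in the other 10. Ffar3, a receptor for short-chain fatty acids, had 55.7 and 16.1 CPM in Ngn3KO (log2 1.73) and 60.6 and 10.4 CPM in Neurod1OE (log2 2.44). Among the lower genes was Ghrl, the gene of ghrelin, with 24.05 and 1643 CPM in Ngn3KO (log2 -6.04) and 23.1 and 469.5 CPM in Neurod1OE (log2 -4.29). No insulin-high cell reached 1000 CPM of Ghrl, against 9 of 94 low-insulin and 14 of 99 glucagon-only cells of Ngn3KO.

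Fewer genes passed 2-fold in low-insulin than in insulin-high cells of set 2, but the classes differed in cell number. In Ngn3KO set 2, 2.1% of 9918 measured genes were higher and 1.95% lower in low-insulin cells (4.04% in either direction). In Neurod1OE set 2, 3.7% of 10197 were higher and 6.6% lower (10.3% in either direction). These sums took in 94 and 39 low-insulin cells, against 9 and 5 insulin-high cells. With the 7 low-insulin cells of Neurod1OE set 3, 27.2% of genes passed. The part of cell number in these shares was not tested. Beta genes had 0 of 13 higher and 0 lower in Ngn3KO (median log2 -0.05) and 0 of 14 higher and 2 lower, Ucn3 and Trpm5, in Neurod1OE (median 0.08). Alpha genes had 0 of 19 higher and 0 lower in Ngn3KO (median 0.10) and 3 of 19 higher in Neurod1OE (median 0.15). Genes that passed 2-fold in both genotypes with and without the top cell, at 50 CPM or more in the higher class, were Ins1 and Ins2, which the rule used, and on the lower side Rrm2, Ccnj and Zfp266.

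Npy, which stayed below 50 CPM in sum, was higher in low-insulin cells of both genotypes of set 2 with all cells pooled. At least 1 Npy read was found in 44 of 94 low-insulin and 13 of 99 glucagon-only cells of Ngn3KO, and in 15 of 39 and 7 of 69 cells of Neurod1OE. The summed level was 28.8 and 4.101 CPM in Ngn3KO (log2 2.55, 1.73 without the top cell) and 19.2 and 0.924 CPM in Neurod1OE (log2 3.39, 2.01 without the top cell). Most low-insulin cells still had no Npy read, and the highest single cell had 593 CPM in Ngn3KO and 653 CPM in Neurod1OE. Within the Gm12338-positive subset the log2 ratio was 3.30 in Ngn3KO and 2.27 in Neurod1OE. Within the negative subset it was -0.56 in Ngn3KO, at 2.85 and 4.67 CPM, and 4.48 in Neurod1OE, where it was 0.60 without the top cell, so the difference was not seen in every subset.

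**Figure D4:**
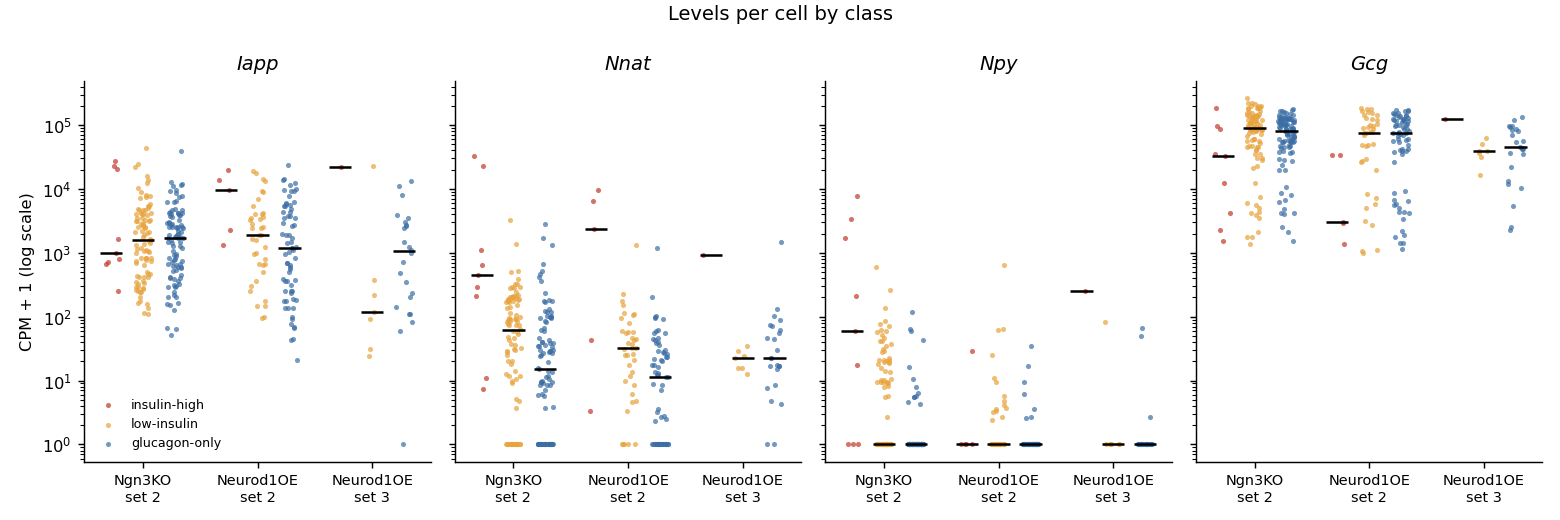
CPM + 1 on a log scale of Iapp, Nnat, Npy and Gcg in each cell, by genotype and set, with insulin-high, low-insulin and glucagon-only cells side by side and bars at the median. Npy is at 0 in most glucagon-only cells, and the Nnat median in Ngn3KO set 2 is 450 CPM in insulin-high, 60.7 CPM in low-insulin and 14.1 CPM in glucagon-only cells.

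With all cells of set 2 pooled, Nnat differed more in its median than in its sum. Its median was 60.7 CPM in low-insulin and 14.1 CPM in glucagon-only cells of Ngn3KO, and 31.2 and 10.2 CPM in those of Neurod1OE, while the summed log2 ratios were 0.39 and 0.57. The ranges overlapped fully, since the highest single value was 3223 CPM in low-insulin and 2783 CPM in glucagon-only cells of Ngn3KO. Within subsets the summed Nnat ratio differed in sign: it was 0.77 in Gm12338-positive and -2.07 in Gm12338-negative cells of Ngn3KO, and -0.09 and 0.45 in those of Neurod1OE. Over glucagon cells of set 2, both subsets together, insulin had a Spearman rho of 0.39 with Nnat in Ngn3KO and of 0.41 in Neurod1OE, and of 0.49 and 0.30 with Npy. Iapp did not follow: its summed log2 ratio was -0.04 in Ngn3KO and 0.44 in Neurod1OE, with rho of 0.03 and 0.20.

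Pyy, the gene of peptide YY, passed 2-fold in low-insulin cells of Neurod1OE and not in those of Ngn3KO, and the difference between genotypes was not tested. It had 20371 and 9159 CPM in low-insulin and glucagon-only cells of Neurod1OE (log2 1.15, 0.96 without the top cell) and 13350 and 11576 CPM in those of Ngn3KO (log2 0.21). The ratio fell short of 2-fold within each subset of Neurod1OE, at 0.95 in Gm12338-positive and -0.11 in Gm12338-negative cells, and 24 of 39 low-insulin but 20 of 69 glucagon-only cells were Gm12338-positive. A ratio of 3.86 for Sst, the somatostatin gene, in low-insulin cells of Ngn3KO came from 1 cell, since it was -0.52 without the top cell.

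Some genes of cell division were lower in low-insulin cells of set 2. Of 8 such genes, 3 were lower in Ngn3KO (median log2 -0.66) and 6 in Neurod1OE (median -1.20), and 0 were higher. Over all measured genes, 1.95% were lower in Ngn3KO and 6.6% in Neurod1OE. Rrm2, a subunit of the enzyme that makes deoxynucleotides, had 22.8 and 93.4 CPM in low-insulin and glucagon-only cells of Ngn3KO (log2 -1.99) and 10.2 and 77.6 CPM in those of Neurod1OE (log2 -2.81). At least 100 CPM of Mki67, a protein of dividing cells, was found in 10 of 94 low-insulin and 16 of 99 glucagon-only cells of Ngn3KO and in 1 of 39 and 7 of 69 cells of Neurod1OE. Ccnj, a cyclin gene, was lower by log2 -1.28 in Ngn3KO and -1.46 in Neurod1OE, and Zfp266, a zinc finger gene, by -1.12 and -1.26. Within Gm12338-positive and Gm12338-negative cells, Rrm2 was at -2.75 and -1.10 in Ngn3KO and at -3.78 and -1.72 in Neurod1OE, and without the top cell the values in Gm12338-negative cells were -0.22 in Ngn3KO and -0.54 in Neurod1OE. Ccnj was at -0.10 and -2.71 in Ngn3KO and at -1.47 and -2.04 in Neurod1OE. Zfp266 was at -0.07 and -1.69 in Ngn3KO and at -1.29 and -1.28 in Neurod1OE.

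Low-insulin cells of set 3 were few and differed in which insulin gene they used. Their 7 cells and the 24 glucagon-only cells gave 27.2% of 10386 genes past 2-fold in either direction. The Ins1 share of their insulin reads was 76.9%, against 57.7% in glucagon-only cells. Of their beta genes 6 of 15 passed 2-fold in either direction (median log2 0.01), and Pdx1 was at 0.671 and 11.7 CPM in low-insulin and glucagon-only cells (log2 -2.93). Ttr, the transthyretin gene of alpha cells and liver, had a median of 54297 CPM in low-insulin and 18630 CPM in glucagon-only cells, and Iapp had medians of 115.997 and 1053 CPM. The higher summed Iapp of log2 1.55 came from 1 low-insulin cell of 22884 CPM, since it was -3.69 without that cell.

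The Ins1 share of insulin reads moved with the Gm12338 subset in low-insulin cells. Ins1 lies at chr19:52264297-52265476 on the plus strand and Ins2 at chr7:142678656-142743381 on the minus strand (GENCODE, GRCm38), and their coding sequences have the same base at 302 of 333 aligned positions, so reads of the 2 genes may be confused. In Gm12338-positive cells the share was 15.7% (14.98 to 16.54) in low-insulin and 16.1% in glucagon-only cells of Ngn3KO, and 11.7% (10.8 to 12.7) and 19.5% in those of Neurod1OE. In Gm12338-negative cells it was 39.2% (37.5 to 40.9) and 35.2% in Ngn3KO, and 46.2% (43.8 to 48.7) and 33.2% in Neurod1OE. The negative cells thus carried a larger Ins1 share in both genotypes, and single cells ran from 0 to 88.6% in low-insulin cells of Ngn3KO. The insulin-high cells of the positive subset had 17.8% in Ngn3KO and 51.3% in Neurod1OE.

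**Figure D5:**
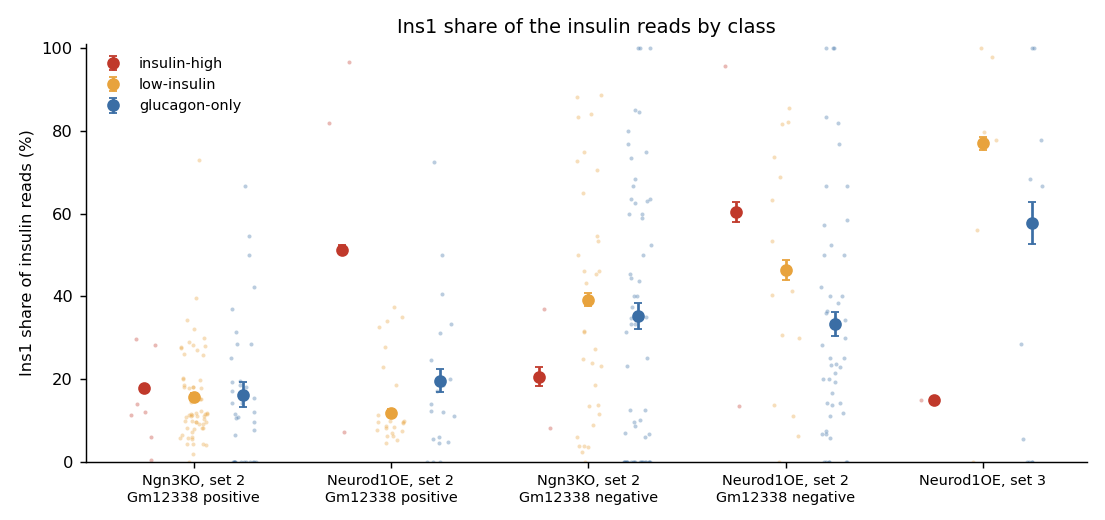
Percentage of insulin reads from Ins1 by class, with large points for the class total (exact 95% intervals, counting error only) and small points for single cells, in Gm12338-positive and Gm12338-negative cells of set 2 and in Neurod1OE set 3. Low-insulin cells have 15.7% and 11.7% among Gm12338-positive and 39.2% and 46.2% among Gm12338-negative cells of Ngn3KO and Neurod1OE.

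Between the genotypes, insulin-carrying cells of set 2 as a whole differed little. Of 10105 measured genes 3.56% were higher and 4.69% lower in Ngn3KO than in Neurod1OE members, and among low-insulin cells alone 4.34% of 10036 were higher and 4.06% lower (8.25% and 8.4% in either direction). Beta genes had 2 of 15 higher and 0 lower over all members, and 0 of 13 higher and 0 lower over low-insulin cells. In the insulin-high cells, 25.2% of 10277 genes were higher and 25.8% lower (51% in either direction), and beta genes had 12 of 18 higher and 0 lower, where 9 Ngn3KO cells stood against 5 Neurod1OE cells. The count of higher beta genes rested on few cells. Without the cells above 10000 CPM of insulin (2 of Ngn3KO and 1 of Neurod1OE), 1 of 13 beta genes was higher and 5 were lower in Ngn3KO. The share over all measured genes in that setting is not given, so the lower genes are a description only. Neurod1 itself had 366 CPM in insulin-high, 288.7 CPM in low-insulin and 287.1 CPM in glucagon-only cells of Ngn3KO, and 477, 278.7 and 355.4 CPM in those of Neurod1OE. Neurog3, the deleted gene, had 2.06 CPM in Ngn3KO and 4.42 CPM in Neurod1OE members, below the limit for a measured gene in both, so its level does not check the label.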

How the data were processed

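RNA of single sorted cells was counted per gene by the authors, and the deposited matrices hold raw counts (whole numbers) for 40824 genes and 92 ERCC spike-in rows. Trimmomatic 0.39, HISAT2 2.1.0, featureCounts 2.0.0 and the build mm10 are named in the submitters' processing notes; strand setting and filters are not given in the sources used here. Cells were mapped to genotype and set by title. CPM excluded ERCC rows. Counts were summed per class and compared as log2 ratios with 1 CPM added (Python 3.11.15, numpy 2.4.6, pandas 2.3.3, scipy 1.17.1); the script was tested on simulated data. With 1 sample per genotype no p-value was computed. No cell was removed. Cells were sorted 1 to a well per the labels, no doublet caller was run, and wells with more than 1 cell were not tested for. The genes named were the markers, hormones, islet factors, leading list members, and up to 12 per direction past 2-fold in both genotypes, also without the top cell, at 50 CPM or more. The members and gene lists were chosen with earlier results of these data known. Some genes that the rule names are not reported here. Promoters came from RefSeq (GRCm38.p6) and gene positions from GENCODE; 89.2% of gene names matched the annotation. Scaling factors of edgeR 4.0.16 and DESeq2 1.42.0 were tried as alternatives, beside other limits, pseudocounts, filters, cell weights and subsets.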

Additional observations from a re-analysis of the deposited data

Results flagged for a closer look

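A signal in cells that enter no comparison was found 2 times. A Ngn3KO cell of set 2 had 85796 CPM of insulin with 816 CPM of Gcg, just under the glucagon limit, and held 22553 CPM of Iapp, 36377 CPM of Nnat and 4343 CPM of Npy. In set 3, a Cpa1-high Ngn3KO cell had 104.24 CPM of insulin, above the limit for members, where the median of the Cpa1-high cells was 0.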

How the results depend on the processing

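Of the alternative values, 80.3% stayed near the reported ones, 37 moved and 1 changed sign. In Ngn3KO and Neurod1OE of set 2, the insulin-carrying share was 65.1% and 57.4% in Gm12338-positive cells, 35.4% and 25.8% in Gm12338-negative cells, 31.7% and 21.2% with the insulin limits doubled, and 70.3% and 60.2% with them halved (43.8% in Neurod1OE set 3). The insulin-high share was 1.98% and 0.885% with limits doubled and 16.3% in Ngn3KO with them halved. The beta-gene median in insulin-high cells of Ngn3KO was 1.67 with equal weight per cell, 1.51 without the top cell of each gene, 3.40 in Gm12338-positive cells and -0.28 without cells above 10000 CPM of insulin, a setting chosen after seeing the data. In Neurod1OE it was 0.21 without the top cell and 1.96 with the deepest 2% of cells left out. The share of measured genes past 2-fold depended on the filter, the pseudocount and single cells. With no filter, 6323 genes (29.9%) passed in insulin-high cells of Ngn3KO and 7675 (36.2%) in those of Neurod1OE, against 3313 (32.4%) and 4448 (42.4%) with it. For low-insulin cells of Ngn3KO, Neurod1OE and Neurod1OE set 3, where 4.04%, 10.3% and 27.2% passed (401, 1050 and 2822 genes), it was 7.25%, 13.4% and 30.8% with no filter (1635, 2963 and 5848 genes), 0.575%, 3.30% and 14.8% with 10 CPM added (57, 337 and 1533 genes), and 1.62%, 5.40% and 17.9% without the top cell. Between the genotypes 8.25% of genes passed (834), against 12.1% with no filter (2662), 2.05% with 10 CPM added (207) and 3.65% without the top cell (369). With 10 CPM added it was 18.5% in insulin-high cells of Ngn3KO (1889 genes). Within Gm12338-positive cells it was 11.3% and 22.8% in low-insulin cells of Ngn3KO and Neurod1OE and 15.9% between the genotypes, and within Gm12338-negative cells 8.77% in Ngn3KO and 14.98% between the genotypes. Apart from the smaller number of cells or genes that a setting leaves, the cause was not tested. No paired analysis was possible because each genotype is 1 sample and the numbers in the titles name cells.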
